A study of Mus musculus with 6 samples.

Results

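The genes for 5 G1 cyclins (Ccnd1, Ccnd2, Ccnd3, Ccne1 and Ccne2), for 4 inhibitors of cyclin-dependent kinases (Cdkn1a, Cdkn1b, Cdkn2a and Cdkn2b) and for the tumour suppressor p53 (Trp53) were examined for peaks of histone H3 acetylated at lysine 56 (H3K56ac) in mouse embryonic stem cells (mESCs). A peak was counted for a gene if any of its bases lay in the gene body or up to 20 kb on either side, with gene models of GENCODE M21. By this rule 23 of 11106 peaks belonged to the 10 genes, 17 of them to the 5 cyclin genes and 6 to the 4 inhibitor genes and Trp53. Ccnd3 alone had 9 of the 17, and 4 of the 17 lay at starts of neighbouring coding genes. The mESCs were of the V6.5 line, were kept undifferentiated on feeder cells with LIF, and had been infected with lentivirus carrying either a scrambled shRNA (Scramble) or an shRNA against Sirt6, a deacetylase of this histone mark (Sirt6 KD). Each arm had 2 H3K56ac chromatin immunoprecipitation (ChIP-seq) libraries and 1 input library. The peaks came as 1 merged set over the libraries that gives a start and an end for each region, with no height and no note of the library. The 2 arms therefore could not be compared, no value has a replicate spread, and all values below are descriptions without a test. The paper counted more peaks in each Sirt6 KD library than in either Scramble library. A peak of the merged set may therefore come from Sirt6 KD libraries alone.

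D-type cyclins join CDK4 and CDK6, and E-type cyclins join CDK2, to phosphorylate the retinoblastoma protein and release E2F factors, which starts S phase. Inhibitors of the Cip/Kip family (p21 from Cdkn1a, p27 from Cdkn1b) bind cyclin-CDK complexes, whereas INK4 proteins (p16 from Cdkn2a, p15 from Cdkn2b) bind CDK4 and CDK6, and p53 activates Cdkn1a after DNA damage. mESCs are known for a short G1 phase. H3K56ac lies on the histone core near the point where DNA enters the nucleosome and is found at active promoters and enhancers.

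Promoter sequence is shown for 6 of the genes because their starts differed in base composition and in whether a peak covered them. The stretches were taken from RefSeq promoters on GRCm38.p6, the assembly behind mm10, and are given 5′ to 3′ on the strand of the gene, ending before its first exon. RefSeq entries matched 7 of the 10 genes, with 10 starts in all, and Ccnd1, Ccnd2 and Ccne2 had none. Capitals mark matches, on either strand, to GGGCGG (bound by SP1), to TTTGGCGC, TTTCGCGC, TTTGGCGG or TTTCCCGC (E2F), to TGACGTCA (cAMP response element), to CACGTG (E-box), to TATAAA, to ATTTGCAT (octamer) or to the p53 half-site. Only matches that lie wholly inside the printed stretch are in capitals, and no match in these promoters overlapped one to another motif.
Cdkn1b, chr6:134920151-134920400, plus strand: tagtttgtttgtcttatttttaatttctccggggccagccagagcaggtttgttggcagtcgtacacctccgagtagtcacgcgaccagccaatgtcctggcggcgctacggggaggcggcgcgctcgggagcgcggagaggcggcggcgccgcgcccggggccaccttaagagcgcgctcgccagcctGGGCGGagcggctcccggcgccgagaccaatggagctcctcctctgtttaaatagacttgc
Cdkn2a, p19Arf start, chr4:89294654-89294869, minus strand: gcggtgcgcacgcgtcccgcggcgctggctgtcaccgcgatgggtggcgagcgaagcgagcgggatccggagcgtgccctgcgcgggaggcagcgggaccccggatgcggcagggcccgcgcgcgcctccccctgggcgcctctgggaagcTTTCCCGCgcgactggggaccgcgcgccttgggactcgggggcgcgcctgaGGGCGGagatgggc
Cdkn2a, p16Ink4a start, chr4:89282193-89282442, minus strand: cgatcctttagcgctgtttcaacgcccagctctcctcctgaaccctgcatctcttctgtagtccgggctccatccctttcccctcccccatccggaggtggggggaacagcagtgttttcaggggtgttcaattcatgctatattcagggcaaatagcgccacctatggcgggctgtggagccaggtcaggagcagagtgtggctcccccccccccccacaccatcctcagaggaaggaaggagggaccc
Cdkn2b, chr4:89311040-89311282, minus strand: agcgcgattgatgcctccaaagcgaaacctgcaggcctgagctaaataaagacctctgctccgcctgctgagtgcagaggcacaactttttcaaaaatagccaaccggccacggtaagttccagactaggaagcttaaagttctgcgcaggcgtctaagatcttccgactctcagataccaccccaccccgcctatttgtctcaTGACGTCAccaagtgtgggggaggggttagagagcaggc
Cdkn1a, upstream start, chr17:29090729-29090975, plus strand: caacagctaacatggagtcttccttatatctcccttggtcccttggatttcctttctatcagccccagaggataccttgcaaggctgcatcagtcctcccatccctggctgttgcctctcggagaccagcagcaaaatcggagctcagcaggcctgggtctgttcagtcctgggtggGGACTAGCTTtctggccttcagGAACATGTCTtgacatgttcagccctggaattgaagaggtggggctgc
Cdkn1a, downstream start, chr17:29093519-29093768, plus strand: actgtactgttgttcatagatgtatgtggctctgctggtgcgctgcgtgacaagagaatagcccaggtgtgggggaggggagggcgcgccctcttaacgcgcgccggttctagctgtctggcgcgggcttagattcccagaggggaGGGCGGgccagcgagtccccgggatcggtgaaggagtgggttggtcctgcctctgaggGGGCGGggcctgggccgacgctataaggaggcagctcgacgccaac
Ccne1, chr7:38107535-38107740, minus strand: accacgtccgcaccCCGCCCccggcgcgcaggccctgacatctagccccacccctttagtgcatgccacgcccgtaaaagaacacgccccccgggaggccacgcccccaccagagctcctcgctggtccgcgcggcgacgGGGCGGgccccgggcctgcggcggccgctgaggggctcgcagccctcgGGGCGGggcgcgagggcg
Trp53, chr11:69580256-69580358, plus strand: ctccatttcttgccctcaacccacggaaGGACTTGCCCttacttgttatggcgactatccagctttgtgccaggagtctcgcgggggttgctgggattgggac

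The first sequence lay inside a peak in its whole length, as did that of Trp53, and the other 6 held no peak base. The CpG-dense stretch upstream of the p19Arf start had 35 CpG dinucleotides in 216 bases, and that of Cdkn1b had 28 in 250. The upstream start of Cdkn1a differed from all of them, with 2 CpG in 247 bases.

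A promoter peak, defined as any peak base within 1 kb of a transcription start site (TSS), was found at 7 of the 10 genes, namely Ccnd1, Ccnd3, Ccne1, Ccne2, Cdkn1a, Cdkn1b and Trp53. Ccnd2, Cdkn2a and Cdkn2b had none. Among all 21938 protein-coding genes 35.7% had a promoter peak, and among those with a CpG-rich promoter 60.4%. A promoter was called CpG-rich if the observed/expected ratio of CpG, taken over 500 bp to each side of the 5′ end, exceeded 0.6, which was the case for 6 of the 10 genes and for 45.9% of all genes. For the same 7 genes a peak's midpoint also fell inside that distance, against 33.9% of all genes. The peak rule itself was met by 8 of the 10 genes, since Ccnd2 had 1 peak in its window, at another gene, against 52.5% of all genes with a peak in the body or within 20 kb. Over all genes, 6091 of the 7836 with a promoter peak were CpG-rich, so the share among genes that were not CpG-rich was below 35.7%. Of the 6 CpG-rich genes among the 10, 4 had a promoter peak, and of the 4 others 3 did. The class was taken at the 5′ end, whereas the promoter peak of Cdkn1a, among the others, lay at a downstream start with a CpG ratio of 0.622.

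**Figure D1:**
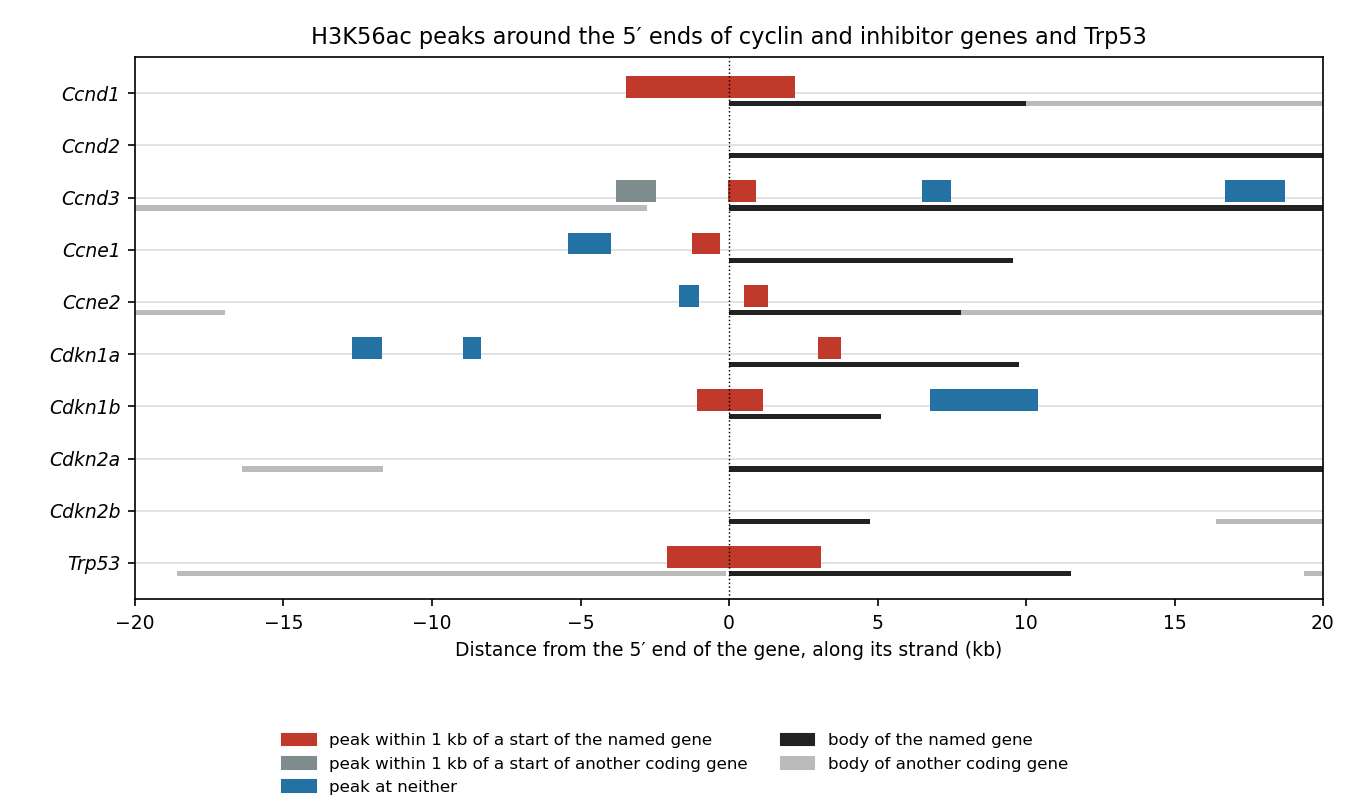
Each row shows the peaks (coloured boxes) and coding gene bodies (thin bars) within 20 kb of the 5′ end of 1 gene, with distance in kb along its strand and each peak drawn to scale. Peaks span the 5′ end at Ccnd1, Ccnd3, Cdkn1b and Trp53, lie beside it at Ccne1 and Ccne2, and are missing at Ccnd2, Cdkn2a and Cdkn2b.

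The peaks at the 3 genes for D-type cyclins were unlike each other. Ccnd1 (ENSMUSG00000070348.5, chr7:144929931-144939925, minus strand), whose cyclin couples growth factor signals to CDK4 and CDK6, carried the widest peak of the 10 genes. It spanned 5674 bp (chr7:144937712-144943385), with 3460 bp before the 5′ end and 2213 bp after it, and held all 3 annotated TSS and 291 CpG. Among 7311 promoter peaks of the set, whose median width was 1162 bp, it stood at the 99.2nd percentile. Every base within 1 kb of the 5′ end of Ccnd1 lay in this peak. The only other peak of the window was 964 bp wide and lay at the start of the neighbouring gene LTO1, 23908 bp downstream of the 5′ end of Ccnd1. Peaks covered 13.3% of the Ccnd1 window, the highest share of the 10 genes, against a median of 0.351% over all genes.

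Ccnd2 (ENSMUSG00000000184.12, chr6:127125162-127152193, minus strand), the D-type cyclin best known from ovary and lymphoid cells, had no peak in its body and none at any of its 7 annotated TSS. The nearest peak edge lay between 29510 bp and 42551 bp from them. It belonged to a 1447-bp peak (chr6:127108196-127109642) at the start of Tigar, which encodes a p53-induced regulator of glycolysis. Beyond the other side of Ccnd2 no peak followed for 368.6 kb, so that Ccnd2 and Parp11, a gene for an ADP-ribosyltransferase, shared a stretch of 411189 bp without a peak. Of the 11085 gaps between neighbouring peaks, 12.8% were at least as long, and the median gap was 48966 bp. This share counts gaps, and a long gap holds more of the genome than a short one. The share of genes or bases in gaps at least as long was not computed. The CpG ratio at the 5′ end of Ccnd2 was 0.530, below the limit for CpG-rich promoters and close to the median over all genes of 0.552.

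Ccnd3 (ENSMUSG00000034165.16, chr17:47505051-47599691, plus strand) held 9 peaks in its window, 7 of them in the gene body, which put it at the 99.9th percentile of all genes by number of peaks. Its 21 transcripts start at 19 sites, most of them in 1 group at the 5′ end and another near the 3′ end of the gene. A 960-bp peak (chr17:47505001-47505960) covered the first group, with 50 bp before the 5′ end and 909 bp after it. A 2081-bp peak (chr17:47593681-47595761) covered 2 TSS of the second group, and the first 3 TSS of that group lay 152 bp to 245 bp before its edge. In all 13 of 19 TSS were inside a peak.

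Between the groups of starts, 5 peaks of Ccnd3 lay in the first intron of the long transcripts, which is 73442 bp long in most of them. Their midpoints were 6978.5 bp, 17700.0 bp, 26793.5 bp, 41112.5 bp and 67050.5 bp from the 5′ end, and their widths were 970 bp, 2015 bp, 550 bp, 278 bp and 1736 bp in the same order. None held a start of another annotated gene. In CpG ratio they ranged from 0.215 to 0.492, below the median of 0.510 over all peaks. Of the 4185 protein-coding genes with bodies from 47.3 kb to 189.3 kb, 0.335% had at least 5 peaks away from their own starts. Among the 1759 of them with a promoter peak the share was 0.625%. The limit of 5 peaks and the length range were taken from Ccnd3 itself, so these shares are a description and not a test. The median of such genes was 0 peaks.

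**Figure D2:**
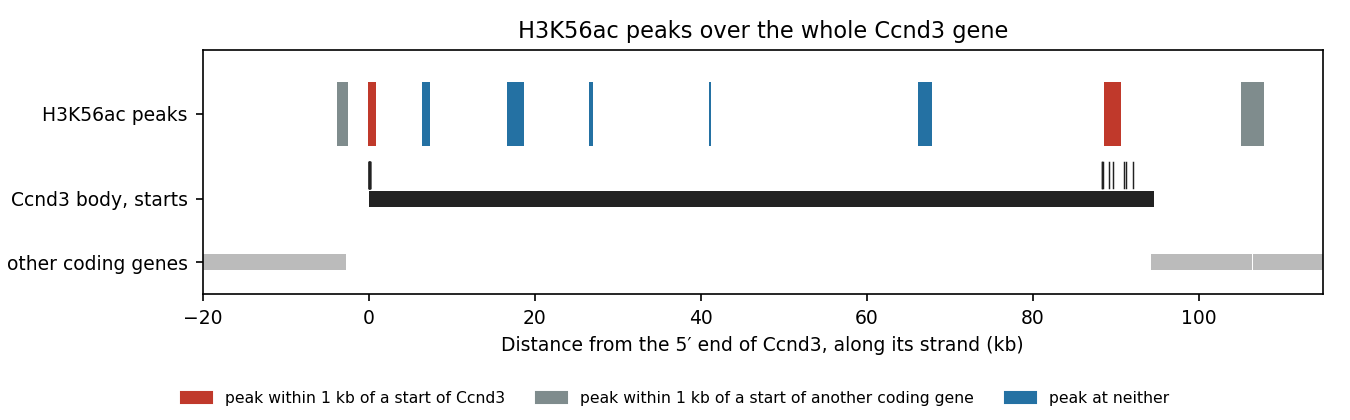
Peaks (boxes) along Ccnd3, drawn to scale by distance in kb from the 5′ end along the gene, with annotated starts as ticks above the gene body. Red peaks lie at both groups of starts, 5 blue peaks lie in between, and grey peaks lie at starts of neighbouring genes.

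The narrowest of the 23 peaks was the fourth of these intron peaks. Its 278 bases are shown whole, on the plus strand of GRCm38, as an example of a peak that is not CpG-rich and lies far from any annotated coding start.
Ccnd3 intron peak, chr17:47546025-47546302, plus strand: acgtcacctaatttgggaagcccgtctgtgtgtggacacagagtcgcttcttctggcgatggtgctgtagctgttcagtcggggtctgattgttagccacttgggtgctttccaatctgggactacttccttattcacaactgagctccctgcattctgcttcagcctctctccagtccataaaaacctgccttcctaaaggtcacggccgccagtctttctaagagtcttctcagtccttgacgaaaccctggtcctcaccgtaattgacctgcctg

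It held 9 CpG and no match to any of the motifs searched, so that no base is in capitals. The other peaks of the Ccnd3 window lay at starts of neighbours, a 1339-bp peak at Taf8, a gene for a TFIID subunit, and a 2688-bp peak (chr17:47610210-47612897) at Bysl and Med20. A start of the overlapping gene model Gm20517 was also within 1 kb of the latter.

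At the genes for E-type cyclins, which drive entry into S phase with CDK2, peaks stood beside the main starts. The 5′ ends of Ccne1 and Ccne2 were the most GC-rich of the 10 genes, with G or C at 74.5% and 74.8% of the bases up to 500 bp away, against a median of 54.7% over all genes. At Ccne1 (ENSMUSG00000002068.16, chr7:38097984-38107534, minus strand) a 941-bp peak (chr7:38107823-38108763) ended 289 bp upstream of the 5′ end, and none of 5 TSS was inside a peak. A 1447-bp peak followed 4703 bp upstream, counted to its midpoint, and a 1313-bp peak with 61.2% GC lay beyond the 3′ end of the gene, 14148.0 bp downstream of the nearest TSS of Ccne1. Neither was within 1 kb of an annotated start of another gene.

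At Ccne2 (ENSMUSG00000028212.16, chr4:11191351-11204779, plus strand) a 792-bp peak (chr4:11191860-11192651) began 509 bp downstream of the 5′ end, and a 668-bp peak (chr4:11189675-11190342) ended 1009 bp upstream of it. The CpG-dense start thus lay between a pair of peaks. Of its 7 TSS, the single one inside a peak began a processed transcript that encodes no protein. In width the promoter peaks of Ccne1 and Ccne2 stood at the 40.5th and the 31.3rd percentile of promoter peaks, far below that of Ccnd1. They covered 35.6% and 24.6% of the bases within 1 kb of the 5′ end.

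The base at the 5′ end was inside a peak at 4 of the 10 genes (Ccnd1, Ccnd3, Cdkn1b and Trp53), against 19.7% of all genes. Counting every annotated TSS, 22 of 55 starts were inside peaks, and 5 of the 10 genes had at least 1 such start, against 25.0% of all genes. Ccnd3 alone gave 13 of the 22, and the share over all annotated TSS was not computed. Of the 7836 genes with a promoter peak, 30.0% had no TSS inside a peak, as Ccne1 and Cdkn1a did. GC content moved with this difference over all genes. Where the 5′ end had over 70% GC, 39.7% of 514 genes with a promoter peak had a TSS inside a peak, compared with 72.2% of 7322 genes at lower GC. The part that GC-rich DNA has in the gap at the starts of Ccne1 and Ccne2 was not tested.

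Of the Cip/Kip inhibitors, Cdkn1b was covered at its start and Cdkn1a was not. Cdkn1b (ENSMUSG00000003031.14, chr6:134920401-134925513, plus strand), whose product p27 holds cells in G1, had a 2250-bp peak (chr6:134919313-134921562) centred 36.5 bp downstream of the 5′ end, with both annotated TSS inside it. All bases within 1 kb of the 5′ end were in the peak, which stood at the 80.8th percentile of promoter peaks in width. A second, wider peak of 3655 bp (chr6:134927156-134930810) lay past the 3′ end of the gene. The noncoding RNA genes Lockd and Gm44238 started inside it or within 1 kb of it, and no coding gene did. Together these regions covered 13.1% of the Cdkn1b window, close to the share at Ccnd1.

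Cdkn1a (ENSMUSG00000023067.14, chr17:29090976-29100727, plus strand) had 3 peaks of 621 to 1019 bp, and none of its 5 TSS lay inside one. The 763-bp promoter peak (chr17:29093975-29094737) began 206 bp downstream of the TSS at position 29093769, the CpG-rich start whose upstream sequence is shown above, and its midpoint lay in an intron. This peak had the highest GC content of the 23, at 62.8%, and lay within 1 kb of a start of the noncoding gene model AC167363.2. The upstream start at position 29090979 had a CpG ratio of 0.126 and no peak base within 2996 bp. Farther upstream, a 621-bp peak lay 8651.0 bp before the 5′ end, and a 1019-bp peak lay 12198.0 bp before it. The latter lay within 1 kb of the start of Trp53cor1, which encodes lincRNA-p21, a noncoding RNA induced by p53.

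The INK4 genes Cdkn2a and Cdkn2b, which guard against excess division and are often lost or silenced in tumours, had no peak at all. Cdkn2a (ENSMUSG00000044303.6, chr4:89274471-89294653, minus strand) makes p19Arf from the upstream start and p16Ink4a from the downstream start, and the nearest peak edge lay 156155 bp from the former and 143694 bp from the latter. For Cdkn2b (ENSMUSG00000073802.5, chr4:89306299-89311039, minus strand) it lay 172541 bp away. Both genes sat in a stretch of 654459 bp without a peak (chr4:89138499-89792957), together with Dmrta1, a gene of the doublesex-related family. Gaps at least as long made up 8.62% of all gaps. That share also counts gaps and not genes, so it does not give how often a gene lies in so long a gap. The regions at its ends were narrow, 756 bp inside Mtap and 240 bp beyond Dmrta1.

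**Figure D3:**
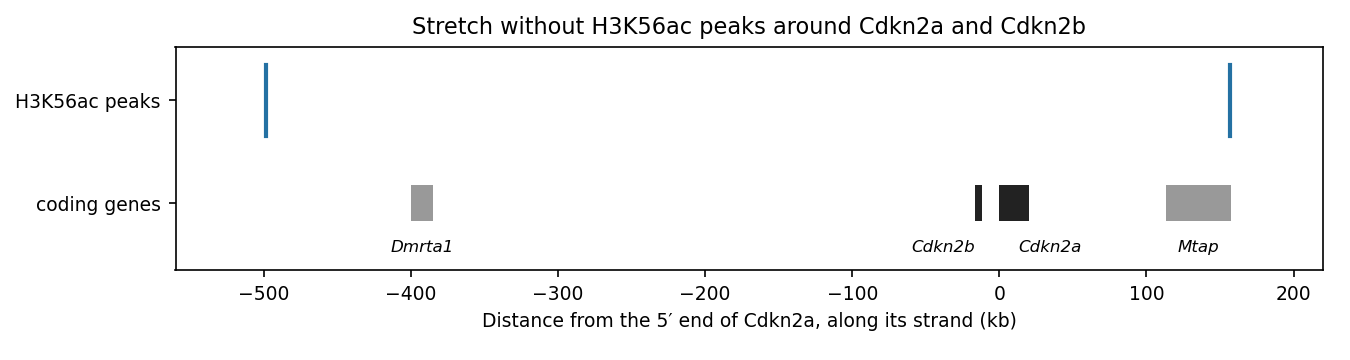
Coding genes (boxes) and peaks (vertical marks, not to scale in width) by distance in kb from the 5′ end of Cdkn2a along its strand. The nearest peaks are 156.2 kb and 498.3 kb away, on opposite sides of Cdkn2a and Cdkn2b.

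The starts without peaks differed in CpG content. The CpG ratio was 0.981 at the p19Arf start and 0.745 at Cdkn2b, both in the CpG-rich class in which 60.4% of genes had a promoter peak. At the p16Ink4a start it was 0.537, under the CpG-rich limit and close to the median of 0.552 over all genes. Only reads with a single location in the genome had been kept for peak calling. All stretches of 75 bases, the read length given in the methods, within 1 kb of either Cdkn2a start and of the Cdkn2b start occurred once in the genome. The study's library list gives slightly longer reads, and a stretch that is unique at 75 bases is also unique when longer. Across the whole windows such unique stretches made up 92.6% at Cdkn2a, 99.5% at Cdkn2b and 99.5% at Ccnd2, and the lowest share of the 10 genes was 85.9%, at Cdkn1a. Depth and the peak threshold were not analysed here, so a missing peak means that none was listed, not that the mark was absent.

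Trp53 (ENSMUSG00000059552.13, chr11:69580359-69591873, plus strand), which encodes p53, had 1 peak, and it was the second widest of the 23. It covered 5200 bp (chr11:69578264-69583463), with 2095 bp before the 5′ end and 3104 bp after it, and stood at the 98.9th percentile of promoter peaks. It held 3 of the 4 TSS of Trp53 and the start of Wrap53, a gene on the opposite strand whose product acts in telomerase assembly. The stretch between the starts of these genes is the short sequence of 103 bases shown above. The peak thus belongs to both genes and cannot be assigned to one of them. With a CpG ratio of 0.549, the start of Trp53 was not CpG-rich.

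Promoter peaks of 3 kb or wider were found at 2 of the 10 genes, Ccnd1 and Trp53, against 3.35% of all protein-coding genes. No gap between neighbouring peaks of the set was under 1000 bp, so a wide region or full cover of a start may include joined peaks and the bases between them. Both genes carried them on starts of moderate CpG ratio, at 0.639 and 0.549, whereas the starts with the highest ratios of the 10 genes, those of Cdkn2a, Ccne2 and Ccne1, had no peak or narrow ones. This contrast did not extend to the other cell cycle genes described below. There, 5 genes had promoter peaks of 3 kb or wider, at CpG ratios from 0.231 (Mdm4) to 0.948 (E2f1 and Mdm2). In the plot of CpG ratio against peak cover, the 10 genes followed no single order. Genes with full cover within 1 kb of the 5′ end ranged from 0.549 to 0.905 in CpG ratio, and genes without any cover ranged from 0.127 to 0.981.

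**Figure D4:**
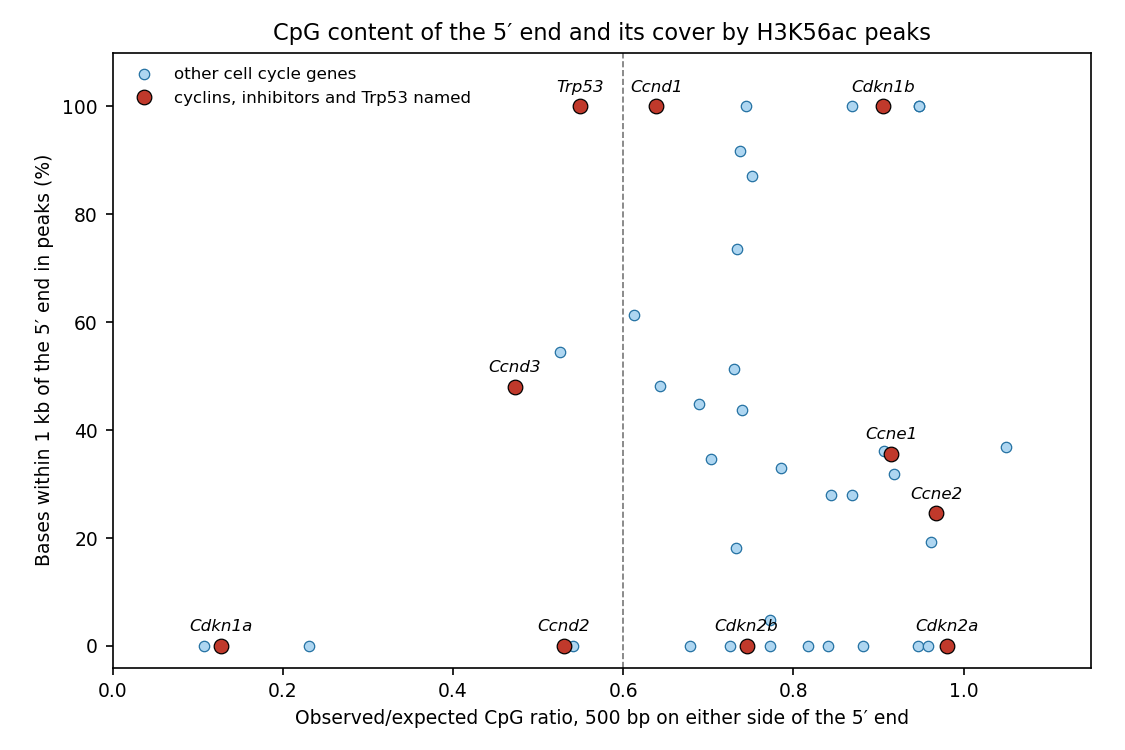
Observed/expected CpG ratio of the 5′ end (horizontal) against the percentage of bases within 1 kb of the 5′ end that lie in peaks (vertical), 1 point per gene, red for the 10 genes and blue for 34 other cell cycle genes, with the CpG-rich limit of 0.6 dashed. Trp53, Ccnd1 and Cdkn1b are at 100.0%, and Ccnd2, Cdkn1a, Cdkn2a and Cdkn2b are at 0.

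As groups, the cyclin genes had peaks over 7.29% of their combined windows (25863 of 354648 bp) and the inhibitor genes with Trp53 over 6.06% (13508 of 222949 bp). Promoter peaks were present at 4 of 5 cyclin genes and at 3 of 5 genes of the other group, against 35.7% of all genes and 60.4% of those with CpG-rich promoters. The median peak width was 1313 bp for the cyclin genes and 1634.5 bp for the others. With 10 kb in place of 20 kb on either side the order of the shares turned, to 7.64% and 8.74%. Of the 23 peaks, 8 lay at a start of 1 of the 10 genes, 4 at a start of another coding gene alone, and 11 at neither, 5 of which were the intron peaks of Ccnd3. All 4 peaks at a start of another coding gene alone were in windows of cyclin genes. Over the whole set, 7311 of 11106 peaks had a base within 1 kb of a TSS of a protein-coding gene.

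GGGCGG was present in 8 of the 10 RefSeq promoters of these genes (250 bases before to 50 bases after the start) and in 35.7% of all 32851 RefSeq promoters, without matching for base composition. The promoters without it were those of Trp53 and of the upstream start of Cdkn1a. An E2F word was found in 1 promoter, TTTCCCGC before the p19Arf start, and any of the 4 E2F words in 2.37% of all promoters. The cAMP response element occurred before Cdkn2b (1.79% of all promoters), and CACGTG (7.15%) and TATAAA (13.6%) occurred at Trp53. The p53 half-site was matched 2 times before the upstream start of Cdkn1a, in the sequence printed above, and 1 time at Trp53, and was present in 8.36% of all promoters. The octamer ATTTGCAT was in none of these 10 promoters of 7 genes (1.74% of all promoters). Counts differed in the wider window of 500 bp to each side of the 5′ end, which included Ccnd1, Ccnd2 and Ccne2. There CACGTG was present at 6 of the 10 genes (Ccnd1, Ccnd2, Ccnd3, Ccne2, Cdkn1a and Trp53), against 17.1% of all 21938 genes. The octamer was present at 2, Ccnd1 and Ccnd2, against 4.07%. The p53 half-site was present at 4 (Ccnd1, Cdkn1a, Cdkn2b and Trp53), against 24.6%, the SP1 box at 9, all but Cdkn1a, against 60.4%, and an E2F word at 2, Ccne2 and Cdkn2a, against 7.47%. TATAAA was found at 2 (32.3% of all genes) and TGACGTCA at 1 (3.32%). In the central 300 bp of the 23 peaks the SP1 box was present in 8, compared with 25.1% of all 11106 peaks, and no E2F word was found, against 2.83%.

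Other cell cycle genes were read from a list of 34 that excluded the 10 genes. A promoter peak was present at 25 of them, against 35.7% of all genes and 60.4% of CpG-rich genes, and 30 of the 34 were CpG-rich. All 5 kinase genes (Cdk1, Cdk2, Cdk4, Cdk6 and Cdk7) had one, with widths of 1443 to 2332 bp. So did 4 of 5 genes for other cyclins, all but Ccna1, the A-type cyclin of the germ line, and 7 of 10 genes for E2F and DP factors, all but E2f2, E2f5 and E2f6. Among the pocket protein genes Rb1 and Rbl1 had a promoter peak and Rbl2 had none. Cdc25b was the only 1 of 3 CDK-activating phosphatase genes without one, and all 3 genes for parts of the ubiquitin ligases that degrade cyclins and inhibitors had one. Judged by peak midpoints, 22 of the 25 genes kept their promoter peak, all but Cdk6, Cks1b and Fbxw7, against 33.9% of all genes. The widest promoter peaks of the list were at Cks1b (5896 bp), which encodes a cofactor in the degradation of p27, at Mdm2 (3688 bp), the ubiquitin ligase for p53, and at E2f1 (3313 bp). The other regulator of p53 listed, Mdm4, also had a broad peak of 3287 bp.

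No promoter peak was listed at the 3 other inhibitor genes, Cdkn1c, Cdkn2c and Cdkn2d, although all 3 were CpG-rich. With Cdkn2a and Cdkn2b, the INK4 family had promoter peaks at 0 of 4 genes, at CpG ratios from 0.679 to 0.981, and the Cip/Kip family at 2 of 3, against 35.7% of all genes and 60.4% of CpG-rich genes. This grouping by family was chosen after the values were seen. Other CpG-rich genes of the list without a promoter peak were Ccna1, Rbl2, E2f2, E2f5 and E2f6.

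**Figure D5:**
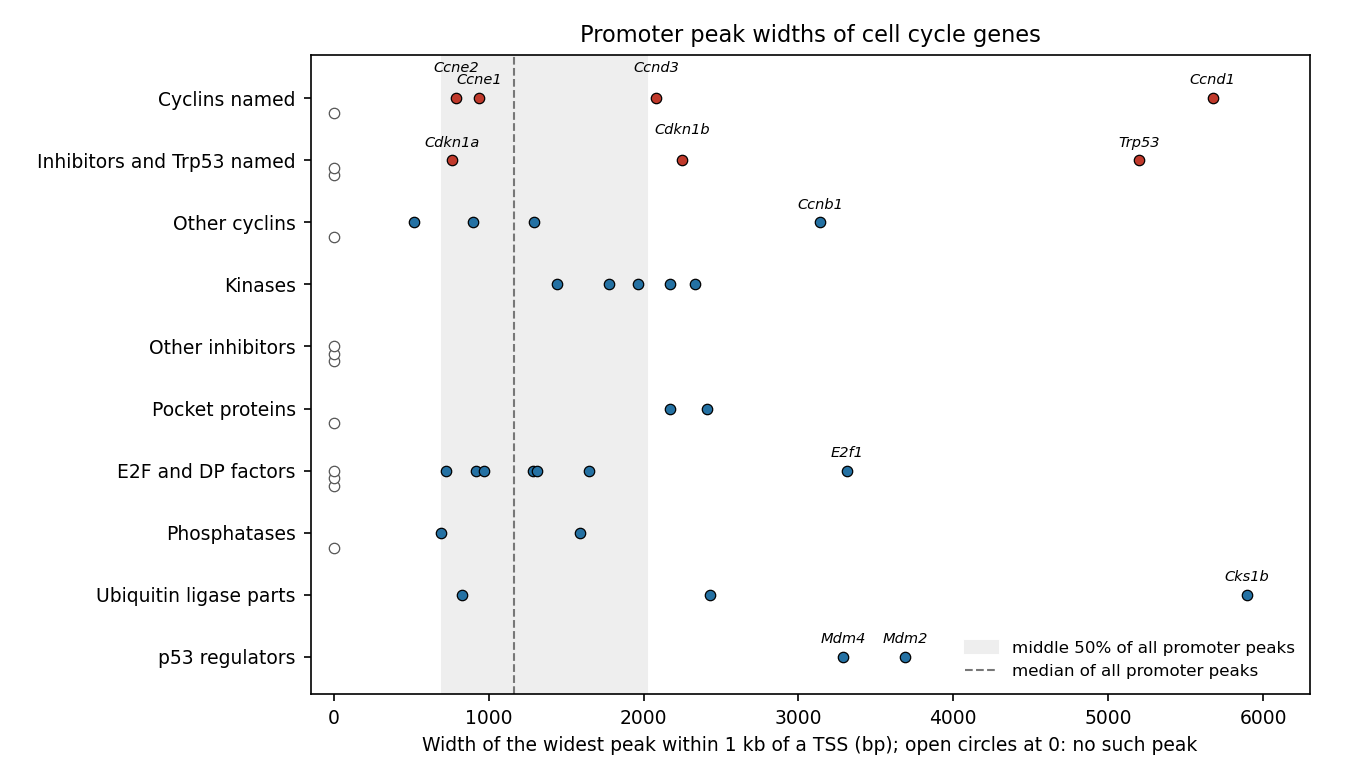
Width in bp of the widest peak within 1 kb of a TSS, 1 point per gene, red for the 10 genes and blue for other cell cycle genes by role, with open circles at 0 for genes without one, the grey band for the middle 50% of all promoter peaks (701.0 to 2020.0 bp) and the dashed line for their median. Ccnd1, Trp53 and Cks1b lie beyond 5 kb, and the row of other inhibitors has open circles alone.

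By the number of peak bases within 20 kb of the 5′ end, Ccnd1 was first among the cyclin genes (5674 bp) and Cdkn1b among the inhibitor genes (5905 bp). The protein-coding genes with the most similar pattern of covered bases around the start, by Jaccard index (bases covered at both over bases covered at either), were Actg1 (0.98) and Rpl35 (0.94) for Ccnd1, where the median over 10119 genes was 0.145. For Cdkn1b they were Neurl2 (0.77) and Tdh (0.75), with a median of 0.126. As the 2 highest values in each comparison, they lie above the median by choice. At Ccnd1 the pattern compared was its single 5674-bp peak.

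The cell type given in the labels was checked on the same set. Promoter peaks were listed at 10 of 10 pluripotency genes, 9 of them 3 kb or wider, and at 0 of 14 fibroblast genes that could mark the feeder cells. Among all protein-coding genes 35.7% had a promoter peak and 3.35% had one of 3 kb or wider. Judged by peak midpoints, 5 of the 10 pluripotency genes kept theirs, against 33.9% of all genes. CpG-rich promoters were present at 3 of these 10 genes and at 3 of the 14 fibroblast genes, against 45.9% of all genes. Whether feeder cells added to the peak set was not tested. All 10 pluripotency genes were chosen as markers, so their widths, with a median of 6154.5 bp, are given as a check and not as a result.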

How the data were processed

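H3K56ac ChIP-seq and input libraries of V6.5 mESCs were grouped by their titles (2 Scramble and 2 Sirt6 KD H3K56ac libraries, 1 input each). The authors trimmed reads with Trim Galore, aligned them to mm10 with bowtie keeping reads with a single location, dropped duplicate reads (Picard), identified peaks (MACS2), left out blacklisted regions and joined the peaks of the libraries (GenomicRanges). The deposited file holds start and end positions of 11106 merged peaks, and its remaining columns have 1 value throughout. It carries no counts, so depth and group differences are not analysed here. Merging hides which library gave a region. The methods describe joining of overlapping peaks, whereas no neighbouring peaks of the set lay closer than 1000 bp. The distance used is not given in the sources used here, so a printed width or full cover of a start may include gaps between joined peaks.

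Positions counted from 0 were printed counted from 1. Genes and TSS of all transcripts came from GENCODE M21 on GRCm38 (21938 protein-coding genes), and promoters from RefSeq on GRCm38.p6. Overlaps, base composition, motif matches on both strands and unique 75-base stretches (exact matches alone, so trimmed reads and mismatches are not covered) were computed in Python 3.11.15 with numpy 2.4.6 and numba 0.67.0, and drawn with matplotlib 3.10.9. The overlap steps were tested on simulated data, and 200 of 200 planted peaks were placed correctly. Genes with bodies of 0.5 to 2 times the length of Ccnd3 served as its comparison.

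The 10 genes and all gene lists were chosen with earlier results of these data known. Genes named were the 10, coding genes with a TSS in a peak of their windows, other cell cycle genes without a promoter peak or with 1 of the 3 widest, and the 2 genes most like the cyclin and inhibitor genes richest in peak bases. Mdm4, the kinase genes and flanking genes are named beyond this rule. No test was possible. Alternatives changed the promoter distance, TSS set, peak width, window, CpG limit and motif window.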

Additional observations from a re-analysis of the deposited data

How the results depend on the processing

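Of 35 alternatives to 10 counts and shares, 28 left the value unchanged or a count within 1.5 times, and 7 moved it. In the gene body alone, 9 peaks in place of 17 belonged to the cyclin genes and 3 in place of 6 to the inhibitor genes and Trp53. The share of the windows in peaks was 7.64% (cyclins) and 8.74% (inhibitors and Trp53) with 10 kb on either side, and 4.87% and 3.59% with 50 kb, so that the order of the groups turned at 10 kb. An E2F word was matched in 20% of the 10 genes within 500 bp of the 5′ end, in place of 10.0% of the RefSeq promoters. With the 5′ end of each gene as its only start, the promoter peak of Cdkn1a was lost (2 of 5 in place of 3 of 5). No paired analysis was possible because peak positions alone were deposited, without values per library. For the same reason no library could be left out, and depth sets a limit that the set does not show.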
